A study of Mus musculus with 36 samples.

Results

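A set of 9 genes of the tight junction was followed through ozone injury of the mouse lung: the claudins Cldn1, Cldn2, Cldn3, Cldn4, Cldn5, Cldn7 and Cldn18, occludin (Ocln) and the scaffold protein ZO-1 (Tjp1). They were taken as all probe sets to which the platform annotation gives 1 of these symbols and no other, which found 18 of the 45037 probe sets tested and 9 of 18193 genes. Lung RNA came from 36 male mice of 7 to 13 weeks, 1 mouse per Affymetrix mouse expression array, in 12 groups of 3. The groups were Notch3-/- mice, Notch4-/- mice and WT mice, each breathing filtered air or 0.3 ppm ozone continuously for 6 hr, 24 hr or 48 hr. Notch3-/- and Notch4-/- mice carried the Notch3tm1Grid or Notch4tm1Grid allele in all cells on a mixed background, and WT mice were the F1 hybrids B6129SF1/J, so strain background and the lost receptor cannot be told apart. Each genotype had 1 air group, with which all of its ozone groups were compared, so comparisons at different times share their air mice.

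Tight junctions seal the space between neighbouring epithelial or endothelial cells near their apical edge. Claudins are membrane proteins that span the membrane several times and, by the kinds present, set which ions and how much water pass between cells. Claudin 2 forms cation and water channels in leaky epithelia, claudin 1, 3, 4, 5, 7 and 18 are counted mainly among the sealing kinds, occludin lies beside them in the strands, and ZO-1 ties the strands to actin. In the lung, Cldn3, Cldn4 and Cldn18 are the main claudins of alveolar epithelium and Cldn5 is best known from endothelium.

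Values are log2 signals relative to the 36-array median of the probe set, so they compare mice for 1 probe set and not 1 gene with another. Whether a gene lay above background, and whether lung markers were present, cannot be read from such centred values. In whole lung RNA, fewer cells of a type and less RNA per cell cannot be told apart. Of the 2 Notch3 probe sets, the one that moved less lay between -2.43 and -1.71 in Notch3-/- mice, against -0.37 to 0.88 in WT mice. The most responsive Notch4 probe set lay between -4.31 and -1.40 in Notch4-/- mice, against -0.38 to 0.58 in WT mice, and its 2 highest Notch4-/- values, -1.97 and -1.40, were those of air mice 1 and 2. Another Notch4 probe set did not separate the genotypes, with -0.23 to 0.16 in Notch4-/- mice, against -0.31 to 0.25 in WT mice. The standard deviation of an array ran from 0.164 to 0.426 log2 and was highest in mouse 2 of the Notch4-/- 48 hr group. Air mouse 3 of the Notch3-/- group stood apart by skeletal muscle transcripts, with a mean of 3.27 over 8 markers, against -0.05 and 0.22 in the group's other mice.

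Cldn4 changed most. After 48 hr of ozone it was higher than in air in every genotype, by 1.23 log2 over the 3 genotypes (SE 0.16, 2.34-fold, limma adjusted p = 3.4e-06), and none of the 9 mice exposed for 48 hr overlapped the 9 air mice. The lead probe set of Cldn2 was higher at 24 hr and at 48 hr. That of Ocln and the endothelial claudin Cldn5 were lower at 48 hr. Over the genotypes 4 of the 18 probe sets passed at 48 hr, 2 higher and 2 lower, against 10.7% of all probe sets, 6.72% higher and 3.96% lower. At 24 hr 2 of 18 passed, against 5.29%. At 6 hr 0 of 18 passed, against 2.9%, with 2 at an unadjusted p under 0.05 and 0 by Tukey's test behind an adjusted test over the 12 groups. Of all 45037 probe sets, 8642 had an unadjusted limma p under 0.05 at 6 hr.

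**Figure D1:**
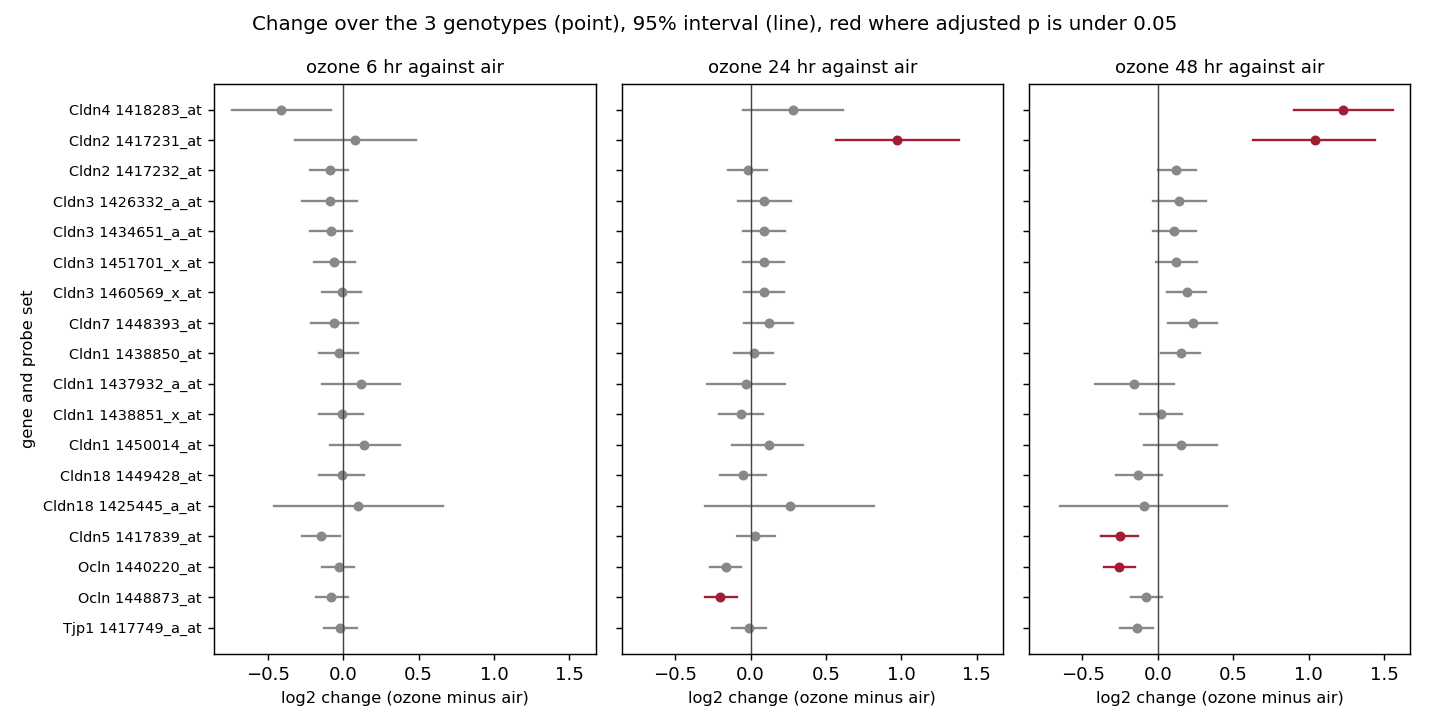
Difference between ozone and air over the 3 genotypes for the 18 probe sets (y axis) at 6 hr, 24 hr and 48 hr, on the log2 scale (x axis). Points are limma estimates, lines 95% intervals, and red marks an adjusted p under 0.05: Cldn2 and Ocln at 24 hr, and Cldn4, Cldn2, Cldn5 and Ocln at 48 hr.

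Cldn4 (chromosome 5, probe set 1418283_at) encodes a sealing claudin that is low in resting alveoli and known to be raised in injured lung. In Notch3-/- mice it was -0.73, -0.25 and -0.81 in air, 0.12, -0.65 and -0.90 at 6 hr, 0.00, -0.07 and 0.06 at 24 hr, and 0.50, 0.57 and 0.76 at 48 hr. In Notch4-/- mice it was 0.04, 0.46 and -0.59 in air, -0.67, -0.71 and -1.07 at 6 hr, 0.23, 0.30 and -0.53 at 24 hr, and 1.11, 1.07 and 0.57 at 48 hr. In WT mice it was -0.81, 0.15 and -0.52 in air, -0.64, -1.28 and -0.93 at 6 hr, -0.58, 0.00 and 0.04 at 24 hr, and 1.49, 1.0 and 0.93 at 48 hr. All mice at 48 hr were thus above all air mice of their genotype, and the 3 highest values were those of WT mouse 1 and Notch4-/- mice 1 and 2, while 4 of the 9 mice at 6 hr lay below the lowest air mouse.

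Within genotypes, Cldn4 rose at 48 hr by 1.21 in Notch3-/- mice (SE 0.28, 2.31-fold, limma adjusted p = 0.014) and by 1.53 in WT mice (SE 0.28, 2.89-fold, limma adjusted p = 0.0018). In Notch4-/- mice the change was 0.94 (SE 0.28), with a limma adjusted p of 0.082, so it did not pass. Notch4-/- air mice 1 and 2, whose Notch4 signal was intermediate, had Cldn4 at 0.04 and 0.46, and air mouse 3 at -0.59. The Notch4-/- change and its difference from WT are measured from these air mice. The rise in WT mice passed without any single mouse, with values of 1.32 to 1.81. The Notch3-/- call was lost without air mouse 1 (1.14, adjusted p = 0.08), air mouse 3 (1.10, 0.058), 48 hr mouse 2 (1.23, 0.05) or 48 hr mouse 3 (1.13, 0.06). At 24 hr the change over genotypes was 0.28 (SE 0.16, adjusted p = 0.33), and at 6 hr it was -0.41 (SE 0.16, adjusted p = 0.16). The 48 hr response of Notch3-/- mice minus that of WT mice was -0.33 (95% interval -1.14 to 0.49), and that of Notch4-/- mice minus that of WT mice was -0.59 (-1.4 to 0.22). Both intervals are wide and hold 0, and neither shows that the responses were alike.

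**Figure D2:**
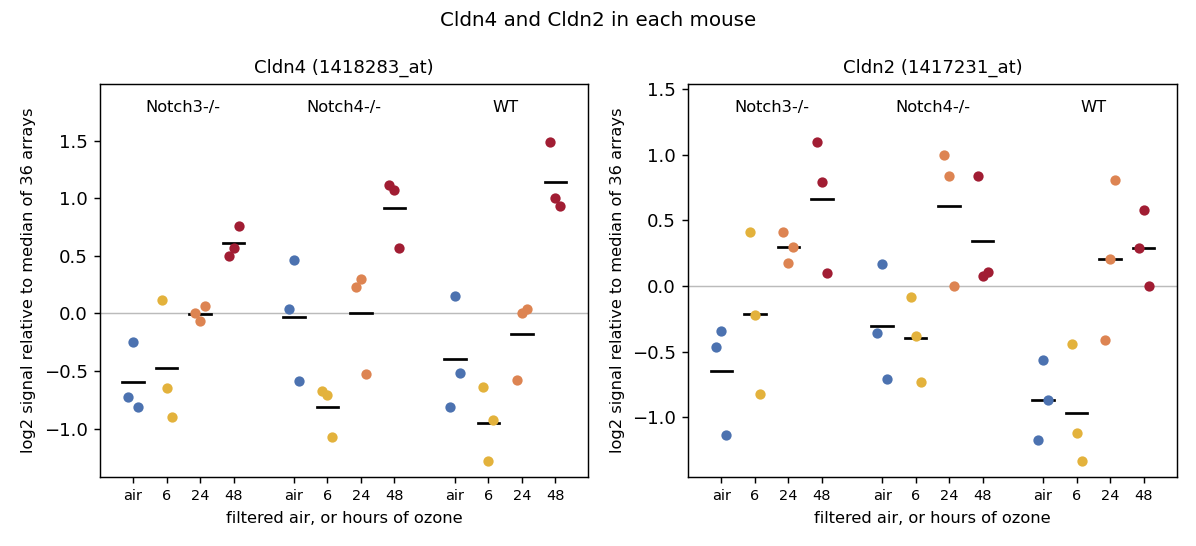
Signal of Cldn4 (left) and Cldn2 (right) in each mouse, in log2 relative to the median of the 36 arrays (y axis), by genotype and by air or hours of ozone (x axis). Points are mice and bars group means (n = 3). The Cldn4 mice at 48 hr sit between 0.50 and 1.49, above all air mice, the highest of which is at 0.46.

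Cldn2 (chromosome X, lead probe set 1417231_at), the channel-forming claudin, was raised earlier. The 9 mice at 24 hr ran from -0.41 to 1.0 with a median of 0.30, those at 48 hr from 0.00 to 1.10 with a median of 0.29, and those in air from -1.17 to 0.17 with a median of -0.56. All mice at 24 hr and at 48 hr were above the air median, and 7 of 9 at 24 hr and 5 of 9 at 48 hr were above the highest air mouse, mouse 2 of the Notch4-/- group. Over genotypes Cldn2 rose by 0.97 at 24 hr (SE 0.20, 1.97-fold, limma adjusted p = 0.003) and by 1.04 at 48 hr (SE 0.20, 2.05-fold, limma adjusted p = 0.0005), and both calls held without any single mouse.

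Within a genotype Cldn2 passed once. In Notch3-/- mice it was 1.10, 0.79 and 0.10 at 48 hr, against -0.46, -0.34 and -1.13 in air, groups that do not overlap (1.31, SE 0.34, limma adjusted p = 0.032). That call was lost without any of air mice 1 to 3 (1.4, 1.46 and 1.07, adjusted p = 0.075, 0.05 and 0.15) and without 48 hr mouse 1 or 2 (1.09 and 1.25, adjusted p = 0.2 and 0.14). The WT change at 48 hr was 1.15 (adjusted p = 0.081) and the WT change at 24 hr 1.07 (adjusted p = 0.39), and the Notch4-/- change at 24 hr was 0.92 (adjusted p = 0.16). The differences between these responses had wide intervals, such as -1.49 to 0.48 for Notch4-/- minus WT at 48 hr. The other Cldn2 probe set, 1417232_at, passed nowhere and correlated with the lead at r = 0.44 over the 36 arrays. Its change at 48 hr was 0.12 over genotypes (SE 0.06, limma adjusted p = 0.24). At 24 hr 7 of 9 mice lay below its air median and 2 above. The rise, and its earlier start, thus rest on 1 of 2 probe sets.

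The start regions of Cldn4, of its neighbour Cldn3 and of Cldn2 are shown because the first and the last carried the largest rises, while Cldn3 lies next to Cldn4 on chromosome 5 with 0 RefSeq genes between them and did not pass over genotypes. Each sequence runs 5′ to 3′ on the gene's strand, from 250 bases before to 50 bases after the RefSeq start (build GRCm38.p6), and capitals mark matches to TGANTCA, the site class of AP-1 (Fos and Jun) factors. Cldn4 is chr5:134946885-134947184 on the minus strand, Cldn3 chr5:134985964-134986263 on the plus strand and Cldn2 chrX:139800558-139800857 on the plus strand.
Cldn4: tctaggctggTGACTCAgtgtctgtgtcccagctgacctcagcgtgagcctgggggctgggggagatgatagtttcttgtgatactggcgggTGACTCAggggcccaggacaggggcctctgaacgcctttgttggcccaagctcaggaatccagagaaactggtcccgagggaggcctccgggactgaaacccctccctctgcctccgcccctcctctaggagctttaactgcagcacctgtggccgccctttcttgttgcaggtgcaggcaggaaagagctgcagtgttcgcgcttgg
Cldn3: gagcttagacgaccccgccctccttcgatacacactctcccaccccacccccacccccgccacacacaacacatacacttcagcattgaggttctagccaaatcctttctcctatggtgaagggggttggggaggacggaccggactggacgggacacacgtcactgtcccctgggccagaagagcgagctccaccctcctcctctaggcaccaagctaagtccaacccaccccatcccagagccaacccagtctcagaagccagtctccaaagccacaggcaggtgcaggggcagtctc
Cldn2: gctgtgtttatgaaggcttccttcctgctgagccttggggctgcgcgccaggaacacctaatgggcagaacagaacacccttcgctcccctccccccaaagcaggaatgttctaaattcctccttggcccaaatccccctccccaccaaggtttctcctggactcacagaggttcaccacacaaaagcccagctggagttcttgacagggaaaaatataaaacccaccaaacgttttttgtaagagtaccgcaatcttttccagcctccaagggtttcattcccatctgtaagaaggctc
The Cldn4 window held 2 matches, beginning 240 and 158 bases before the start, and the windows of the 8 other members held 0. Of 32851 RefSeq windows of the same length, 7.81% held at least 1 match on either strand and 0.46% held 2 or more. The Cldn2 window held 2 matches to GGAATG, the letters of TEAD factor sites, and 1 of the Cldn7 windows held 1. Among all windows, 14.7% held at least 1 such match and 1.36% at least 2. TGACNNNGC, the core of the antioxidant response element, was in 0 windows of the members and in 12.4% of all. GGGCGG, the GC box, was in windows of 7 members, among them Cldn4 and Cldn3, and in 35.7% of all. None of the matches overlapped one of another motif. A match in these letters is a description, and binding was not measured.

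Cldn3 (chromosome 5) encodes another sealing claudin of alveolar epithelium. Its calls were confined, among the 9 comparisons within genotypes, to Notch3-/- mice at 24 hr, where all 4 probe sets rose. The lead probe set, 1426332_a_at, was 0.30, 0.38 and 0.17 in Notch3-/- mice at 24 hr, against -0.26, -0.58 and -0.30 in Notch3-/- air mice, with no overlap (0.66, SE 0.15, 1.59-fold, limma adjusted p = 0.016). In the same comparison 1434651_a_at, 1451701_x_at and 1460569_x_at rose by 0.49, 0.54 and 0.45 (limma adjusted p = 0.025, 0.01 and 0.026). Probe sets of 1 gene share transcripts and are not separate evidence, and their correlations with the lead were 0.85, 0.92 and 0.72 over the 36 arrays. In Notch4-/- mice the lead probe set was -0.20, -0.23 and -0.15 at 24 hr, against 0.05, 0.07 and -0.03 in air. In WT mice it was 0.03, -0.24 and 0.07 at 24 hr, against -0.01, 0.21 and 0.16 in air. The Notch3-/- air mice had the lowest mean of the 12 groups and the Notch3-/- 24 hr mice the highest, and the Notch3-/- air mice lay below all WT air mice (-0.50, SE 0.15, adjusted p = 0.21, not passing).

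Cldn7 (chromosome 11, 1448393_at), which in epithelia lies largely along the lateral membrane, passed in Notch3-/- mice at 48 hr, where Cldn3 did not. In Notch3-/- mice it was 0.33, 0.19 and 0.07 at 24 hr and 0.40, 0.16 and 0.08 at 48 hr, against -0.32, -0.11 and -0.41 in air. Neither ozone group overlapped the air group. The change was 0.48 at 24 hr (SE 0.13, limma adjusted p = 0.05, just over the threshold), and at 48 hr Cldn7 rose by 0.49 (SE 0.13, 1.41-fold, limma adjusted p = 0.044). In Notch4-/- mice it was 0.43, 0.02 and -0.19 at 24 hr and 0.21, 0.10 and -0.07 at 48 hr, against 0.08, 0.10 and -0.20 in air, groups that overlap. In WT mice it was -0.23, -0.16 and 0.01 at 24 hr and 0.15, 0.26 and 0.23 at 48 hr, against -0.02, 0.33 and -0.01 in air. Over genotypes its change at 48 hr was 0.23 (SE 0.08, adjusted p = 0.052). The Cldn7 and Cldn3 lead probe sets correlated at r = 0.62 over the 36 arrays, which hold the same 12 groups.

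Epithelial genes moved beside Cldn3 and Cldn7 in Notch3-/- mice at 24 hr. Of 10 epithelial markers 2 were higher, Krt18 (0.61) and Krt19 (0.55), and 0 lower, against 1.79% and 1.37% of all genes. The mean over the list was -0.12 to 0.16 in Notch3-/- mice at 24 hr, against -0.29 to -0.12 in Notch3-/- air mice, whose mean of -0.22 was the lowest of the 12 groups. Of 14 genes known from regenerating alveolar epithelium, Krt18 and Krt19 among them, 7 were higher in Notch3-/- mice at 24 hr, 2 in Notch4-/- mice and 1 in WT mice, against 1.79%, 1.52% and 0.148% of all genes. Both lists were chosen with earlier results of these data known, so their counts are a description. Airway markers moved too. The mean over 6 club cell markers was -1.75 in WT mice at 24 hr, against -0.19 in WT air mice. It was 0.27 in Notch3-/- mice, against 0.08 in air, and -0.86 in Notch4-/- mice, against 0.63. The mean over 8 ciliated cell markers was -0.30 in WT mice at 24 hr, against 0.04 in air. It was 0.10 in Notch3-/- mice, against -0.10, and 0.01 in Notch4-/- mice, against 0.27. The part of these genes and markers in the Cldn3 and Cldn7 changes was not tested.

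The test of the difference in response did not pass for any member. For Cldn3 the 24 hr response of Notch3-/- mice minus that of WT mice was 0.83 (lead probe set, SE 0.21, 95% interval 0.40 to 1.27, unadjusted p = 0.00054, limma adjusted p = 0.42), with 0.59 to 0.69 at the other 3 probe sets. For Cldn7 it was 0.70 (SE 0.19, 0.31 to 1.09, limma adjusted p = 0.42), and for Tjp1 -0.38 (SE 0.13, -0.65 to -0.12, limma adjusted p = 0.43). All 6 such limma comparisons called 0 of 18 probe sets, against 0.00888%, 0.00444% and 0.00222% of all probe sets for Notch3-/- at 6 hr, 24 hr and 48 hr, and 0%, 0% and 0.00222% for Notch4-/-. At an unadjusted p under 0.05 there were 6, 6 and 0 of 18 for Notch3-/- and 1, 2 and 1 for Notch4-/-. Of all 45037 probe sets, 2189, 4593 and 1303 were under 0.05 for Notch3-/- and 1393, 2366 and 1480 for Notch4-/-. The 18 probe sets include 4 of Cldn3, which are not separate evidence. With arrays weighted by their quality, the same limma contrast passed for Cldn3 (0.89, adjusted p = 0.028) and Cldn7 (0.75, adjusted p = 0.029), and the calls over all probe sets and all 6 comparisons went to 525, against 8 without weights.

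**Figure D3:**
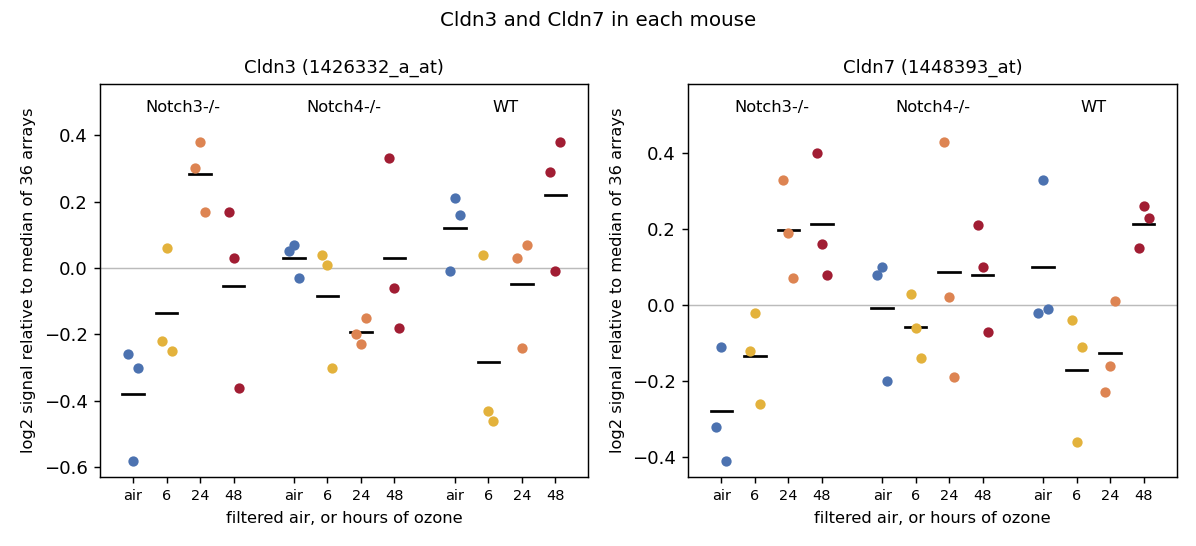
Signal of Cldn3 (left, lead probe set) and Cldn7 (right) in each mouse, in log2 relative to the median of the 36 arrays (y axis), by genotype and by air or hours of ozone (x axis). Points are mice and bars group means (n = 3). The Notch3-/- mice at 24 hr lie above the Notch3-/- air mice in both panels, while WT mice at 24 hr overlap WT air mice.

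Within Notch3-/- mice at 24 hr 5 of 18 probe sets passed, of 2 genes, against 2.72% of all probe sets, and at 48 hr 3 of 18, of 3 genes, against 2.46%. In WT mice 2 of 18 passed at 48 hr, against 1.89%, and 0 of 18 at 24 hr, against 0.104%. In Notch4-/- mice 0 of 18 passed at 24 hr or 48 hr, against 1.39% and 1.75%, with 1 and 3 at an unadjusted p under 0.05 and 0 by Tukey's test. Of all 45037 probe sets, 7822 and 5736 had an unadjusted limma p under 0.05 in these 2 comparisons. At 6 hr no member passed in any genotype, against 0.16%, 0.00666% and 0% of all probe sets in Notch3-/-, Notch4-/- and WT mice, with 2, 1 and 5 members at an unadjusted p under 0.05 and 0 by Tukey's test. Of all probe sets, 5453, 4722 and 3674 had such an unadjusted p. The 10 calls of these 9 comparisons fell to 4 without Notch3-/- air mouse 1, to 4 without Notch3-/- air mouse 3, the mouse with the skeletal muscle transcripts, to 5 without Notch3-/- 24 hr mouse 1 and to 6 without Notch3-/- 24 hr mouse 2. The Cldn3 lead call was lost without Notch3-/- air mouse 2 or 24 hr mouse 1 or 2, and kept without air mouse 3, with values of 0.57 to 0.72 and adjusted p up to 0.076 over the 6 fits. Of the other Cldn3 probe sets, 1434651_a_at lost its call without air mouse 1, 2 or 3 or 24 hr mouse 1 or 2 (adjusted p up to 0.1), 1451701_x_at without 24 hr mouse 1 (0.059), and 1460569_x_at without air mouse 1 or 3 or 24 hr mouse 1 or 2 (up to 0.12). The Cldn7 call at 48 hr was lost without Notch3-/- air mouse 1 or 3 or 48 hr mouse 1 or 2, with values of 0.40 to 0.58 and adjusted p up to 0.25. All 10 calls were lost with Tukey's test adjusted over probe sets. The calls of Cldn7 and Cldn2 in Notch3-/- mice at 48 hr were also lost after quantile normalization (adjusted p = 0.064 and 0.086), and those of Cldn7, Cldn2 and, in WT mice, Ocln when p-values were adjusted over the 9 comparisons together (0.075, 0.059 and 0.054).

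Occludin (Ocln, chromosome 13) spans the membrane beside the claudins and regulates the strands. Its lead probe set, 1440220_at, ran from -0.34 to 0.07 with a median of -0.17 in the 9 mice at 48 hr, against -0.14 to 0.26 with a median of 0.11 in the 9 air mice. All mice at 48 hr were below the air median and 6 of 9 below the lowest air mouse. Over genotypes Ocln fell by 0.26 at 48 hr (SE 0.05, limma adjusted p = 0.0011), with values of -0.28 to -0.23 without any single mouse. In WT mice it was -0.24, -0.08 and -0.27 at 48 hr, against 0.09, 0.26 and 0.12 in air (-0.35, SE 0.09, limma adjusted p = 0.034). In Notch3-/- mice it was -0.19, -0.16 and -0.38 at 24 hr, against 0.11, 0.09 and 0.16 in air (-0.36, SE 0.09, limma adjusted p = 0.027). The groups of both calls do not overlap, and in Notch4-/- mice at 48 hr, which also lay below their air mice, the change was -0.26 (adjusted p = 0.16). The WT call was lost without WT air mouse 1, 2 or 3 or 48 hr mouse 1 or 3 (values -0.41 to -0.30, adjusted p up to 0.2), and the Notch3-/- call without Notch3-/- air mouse 1, 2 or 3 or 24 hr mouse 1 or 3 (values -0.40 to -0.30, adjusted p up to 0.17).

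The other Ocln probe set, 1448873_at, fell over genotypes at 24 hr by 0.20 (SE 0.05, limma adjusted p = 0.02), where the lead probe set changed by -0.16 (adjusted p = 0.064). Without Notch4-/- air mouse 3 this call was lost, with an adjusted p of 0.053. At 48 hr its change over genotypes was -0.08 (SE 0.05, adjusted p = 0.42), with 5 of 9 mice below the air median and 4 above. In Notch4-/- mice the probe sets differed in sign: the mean of the lead was -0.27 at 48 hr, against -0.01 in air, and that of 1448873_at was -0.01 at 48 hr, against -0.07 in air. The probe sets correlated at r = 0.36 over the 36 arrays.

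Cldn5 (chromosome 16, 1417839_at), the claudin of endothelial junctions, fell over genotypes at 48 hr by 0.25 (SE 0.06, limma adjusted p = 0.0063). The 9 mice at 48 hr ran from -0.42 to 0.04 with a median of -0.09, against -0.05 to 0.28 with a median of 0.12 in air. All 9 lay below the air median and 7 of 9 below the lowest air mouse. At 24 hr the change was 0.03 (SE 0.06, adjusted p = 0.8). At 6 hr Cldn5 did not pass, though 8 of 9 mice lay below the air median and 5 of 9 below the lowest air mouse. Its WT mean was -0.11 at 6 hr and -0.05 at 48 hr, against 0.15 in air. Within genotypes Cldn5 passed nowhere, and its 48 hr change in Notch4-/- mice was -0.35 (SE 0.11, adjusted p = 0.094). Beside it, 4 of 14 endothelial markers were lower over genotypes at 48 hr and 0 higher, against 4.34% and 8.39% of all genes, with a median change of -0.24, against 0.00 over all genes. Tie1 (-0.54), Emcn (-0.52) and Ramp2 (-0.24), a receptor, a sialomucin and a receptor partner of endothelium, had the smallest adjusted p, and the mean over the list was -0.28 to -0.14 in Notch3-/- mice at 48 hr, -0.61 to -0.24 in Notch4-/- mice and -0.19 to 0.01 in WT mice, against -0.08 to 0.11, -0.11 to 0.06 and 0.07 to 0.27 in their air mice. Their part in the Cldn5 change was not tested.

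**Figure D4:**
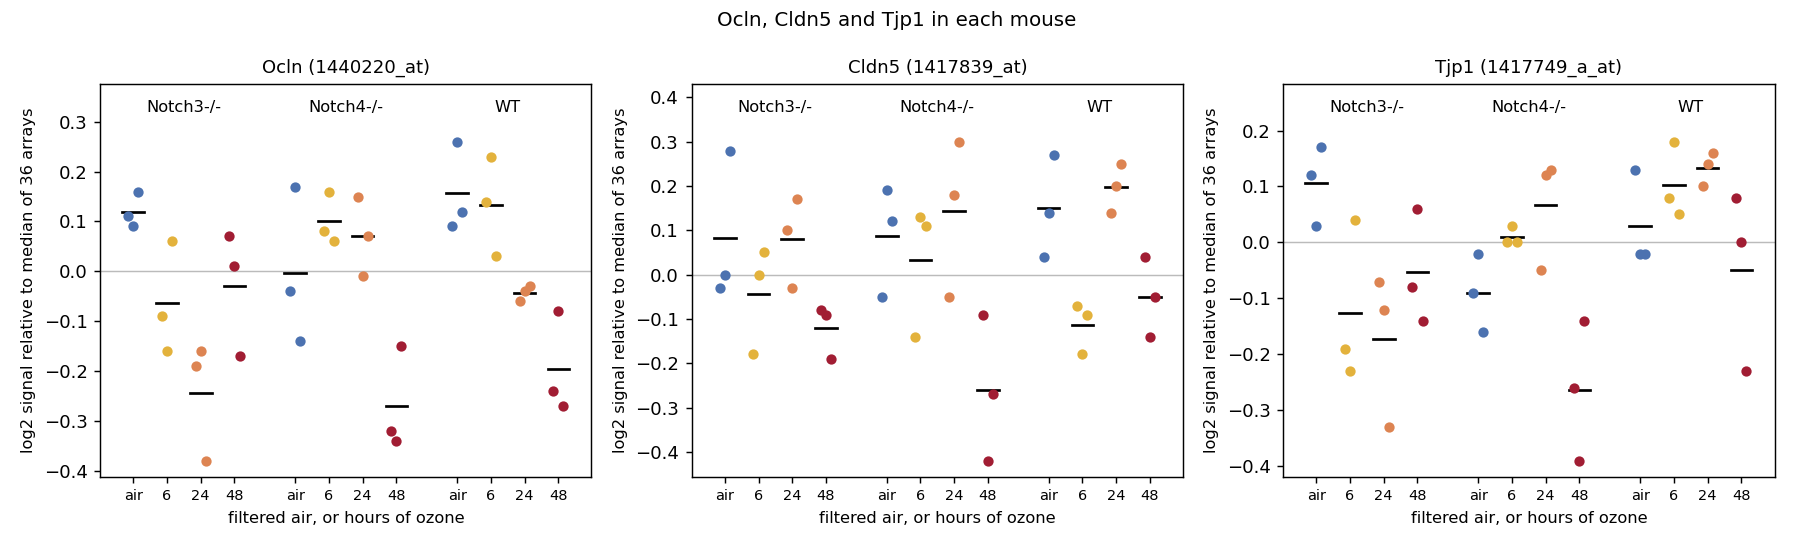
Signal of Ocln (left, lead probe set), Cldn5 (middle) and Tjp1 (right) in each mouse, in log2 relative to the median of the 36 arrays (y axis), by genotype and by air or hours of ozone (x axis). Points are mice and bars group means (n = 3). Of the 9 mice at 48 hr, 6 lie below all air mice for Ocln and 7 for Cldn5.

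Tjp1 (chromosome 7, 1417749_a_at), the scaffold ZO-1, passed in no comparison. Its change over genotypes was -0.14 at 48 hr (SE 0.05, adjusted p = 0.11) and -0.01 at 24 hr (SE 0.05), and all mice lay between -0.39 and 0.18. Cldn1 (chromosome 16), a sealing claudin of airway and skin epithelium, passed in no ozone comparison at any of its 4 probe sets, and its lead probe set, 1438850_at, changed by 0.15 at 48 hr over genotypes (SE 0.06, adjusted p = 0.15). Cldn18 (chromosome 9), a claudin of alveolar epithelium and stomach, passed in no ozone comparison either, with -0.13 at 48 hr for its lead probe set 1449428_at (SE 0.08, adjusted p = 0.35). The other Cldn18 probe set, 1425445_a_at, had a standard deviation of 0.62 within groups, against 0.16 for the lead.

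Averaged over exposures, 1 of 2 Ocln probe sets and 1 of 2 Cldn18 probe sets were lower in both knockout lines than in WT mice. For Ocln 1448873_at the 12 Notch3-/- mice ran from -0.31 to 0.09 with a median of -0.15 and the 12 Notch4-/- mice from -0.30 to 0.14 with a median of -0.02, against 0.00 to 0.40 with a median of 0.16 in the 12 WT mice. All mice of both lines lay below the WT median, and 10 Notch3-/- and 7 Notch4-/- mice lay below the lowest WT mouse. Over air and the 3 ozone times this probe set was lower, with a difference of -0.31 in Notch3-/- mice (SE 0.04, limma adjusted p = 1.8e-05) and by -0.23 in Notch4-/- mice (SE 0.04, limma adjusted p = 0.0012), and it kept both calls without any single mouse. In air alone it was 0.01, -0.17 and 0.09 in Notch3-/- mice and -0.20, -0.02 and 0.02 in Notch4-/- mice, against 0.28, 0.38 and 0.40 in WT mice. Both air differences passed (-0.38, limma adjusted p = 0.043, and -0.42, limma adjusted p = 0.018).

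The air calls depended on single mice. The Notch3-/- call was lost without WT air mouse 1, 2 or 3 or Notch3-/- air mouse 1 or 2 (values -0.43 to -0.31 over the 6 fits, adjusted p up to 0.27), and the Notch4-/- call without WT air mouse 2 or 3 or Notch4-/- air mouse 1 (values -0.47 to -0.36, adjusted p up to 0.19). Without Notch4-/- air mice 1 and 2, whose Notch4 signal was intermediate, its adjusted p was 0.22. The Notch3-/- air call was also lost with the replicate number as a block (adjusted p = 0.054), and both air calls with the mean of the Ocln probe sets (0.43 and 0.089) and with only the arrays of the genotypes compared (0.08 and 0.054). The Ocln lead probe set differed by -0.07 in Notch3-/- mice and by -0.04 in Notch4-/- mice over all exposures (SE 0.04 each, adjusted p = 0.53 and 0.72), so the genotype difference was seen at 1 of the 2 probe sets. Strain and lost receptor cannot be told apart here, and whether the strains differ in bases under the probes of 1448873_at was not tested.

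For Cldn18 (1449428_at) the Notch3-/- mice ran from -0.48 to 0.18 with a median of -0.10 and the Notch4-/- mice from -0.37 to 0.18 with a median of -0.04, against -0.29 to 0.53 with a median of 0.24 in WT mice. All 12 mice of each line were below the WT median, although the ranges overlap. Over all exposures it was lower, with a difference of -0.33 in Notch3-/- mice (SE 0.06, limma adjusted p = 0.0012) and by -0.25 in Notch4-/- mice (SE 0.06, limma adjusted p = 0.02). In air the means were -0.01 in Notch3-/- and -0.12 in Notch4-/- mice, against 0.28 in WT mice, without passing. At 48 hr they were -0.02 and -0.15, against -0.06 in WT mice, so the average does not stand for 48 hr. The noisy Cldn18 probe set gave -0.50 and -0.45 over all exposures without passing. With the mean of the Cldn18 probe sets both calls were lost (adjusted p = 0.06 and 0.13), and the Notch4-/- call was lost with Tukey's test adjusted over probe sets (0.064). Beside it, of 10 alveolar type 1 markers 2 were lower and 1 higher in Notch3-/- mice, against 2.58% and 4.39% of all genes, and 3 were lower and 0 higher in Notch4-/- mice, against 3.05% and 3.62%. Ager and Rtkn2 were lower in both lines (-0.27 and -0.32 in Notch3-/- mice, -0.29 and -0.37 in Notch4-/- mice), Akap5 was lower in Notch4-/- mice (-0.41), and Pdpn was higher in Notch3-/- mice (0.21). The mean over the 10 type 1 markers in air ran from 0.01 to 0.14 in Notch3-/- mice and from -0.13 to 0.07 in Notch4-/- mice, against -0.13 to 0.28 in WT mice. Other cell type markers differed between the lines and WT mice too. All 6 neutrophil markers were higher in both lines over all exposures, among them S100a8 (2.09 and 1.32 in Notch3-/- and Notch4-/- mice) and S100a9 (2.18 and 1.32). In air their mean was -0.01 to 0.60 in Notch3-/- mice and -0.25 to 0.91 in Notch4-/- mice, against -0.68 to -0.43 in WT mice. Of 14 endothelial markers 4 were lower and 0 higher in each line, the same genes in both, Tek (-0.32 and -0.31), Tie1 (-0.39 and -0.30), Ramp2 (-0.23 and -0.26) and Esam (-0.21 and -0.18). Among 6 club cell markers, Scgb3a1 was higher in both lines (2.74 and 2.19), and Bpifa1 was higher in Notch3-/- mice (4.61, SE 1.06). The part of these markers in the Ocln and Cldn18 differences was not tested.

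For Cldn1, 1 of 4 probe sets, 1437932_a_at, was higher in Notch3-/- mice over all exposures by 0.50 (SE 0.11, limma adjusted p = 0.0042), with 8 of 12 Notch3-/- mice above the highest WT mouse. The lead probe set differed by -0.02 (limma adjusted p = 0.9) and correlated with 1437932_a_at at r = 0.00 over the 36 arrays. Probe set 1450014_at correlated with 1437932_a_at at r = 0.55, with 6 of 12 Notch3-/- mice above the highest WT mouse, but did not pass. For 1438851_x_at r was 0.08, with 2 of 12 above. The Cldn1 probe sets thus agree only in part. Over all exposures 3 of 18 probe sets passed in Notch3-/- mice and 2 of 18 in Notch4-/- mice, against 5.68% and 5.76% of all probe sets. In air 1 of 18 passed in each line, against 0.486% and 0.482%.

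**Figure D5:**
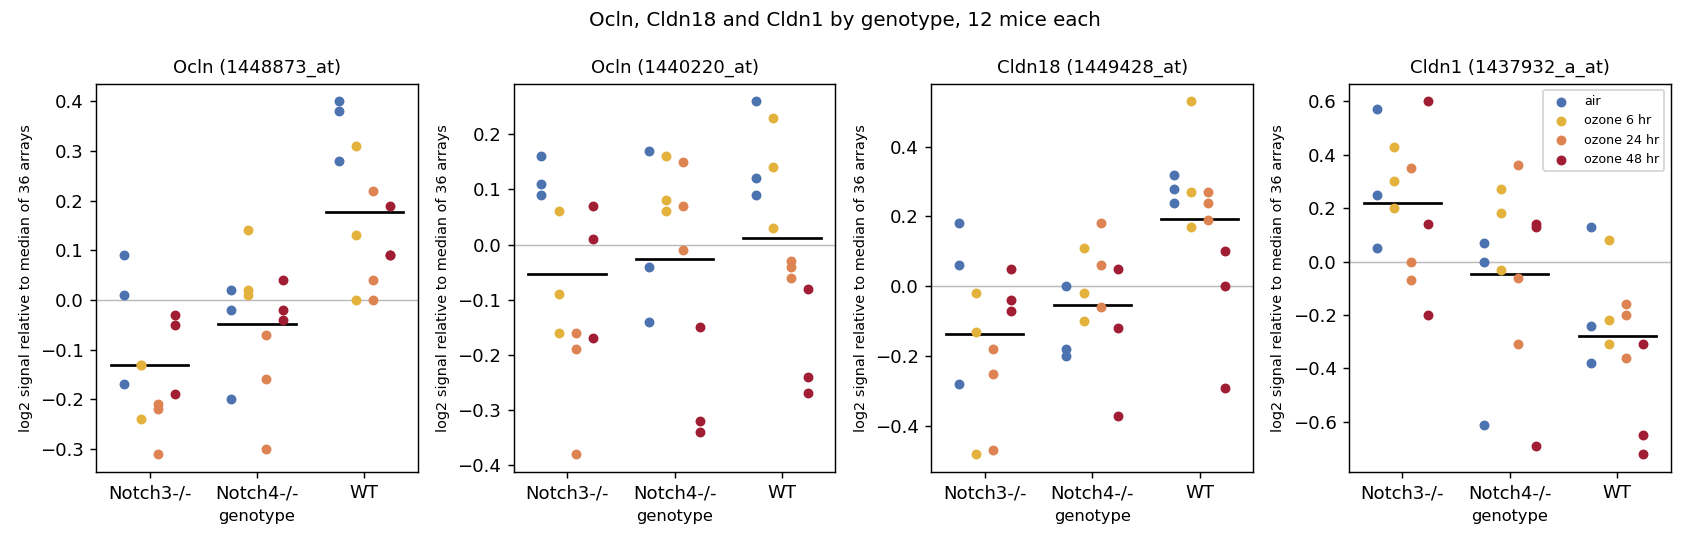
Signal of both Ocln probe sets, of Cldn18 and of 1 Cldn1 probe set by genotype (x axis), in log2 relative to the median of the 36 arrays (y axis). Points are mice, coloured by exposure, and bars means of 12 mice. For the Ocln probe set at the left all mice of both knockout lines lie below the WT median of 0.16, and for the other Ocln probe set the 3 genotypes overlap.

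The genes most like each member were those with the highest correlation over the 36 arrays, which is a description since the arrays share 12 groups and their air mice. For Cldn4 these were Krt18 (r = 0.93), S100a14 (0.92) and Krt8 (0.91), of which Krt8 and Krt18 are the keratin pair of simple epithelia. For Cldn2 they were Tuba4a, Ldha and Akr1b8 (r = 0.86 each), a tubulin, a lactate dehydrogenase subunit and an aldo-keto reductase. For Cldn5 they were Cnn3 (0.83), the endothelial adhesion molecule Pecam1 (0.77) and Galnt18 (0.75), and for Ocln Tril (0.85), Rtn3 (0.84) and Pkd1 (0.83). For Cldn3 the tetraspanin Cd9 came first (0.80), before Hccs and Lsg1 (0.76 each), and for Cldn7 0610040J01Rik (0.85), the fatty acid receptor Ffar4 (0.77) and Tmem125 (0.76). Over the 12 groups the means of Cldn4 spanned 2.09 log2 and those of Cldn2 1.62, against 0.37 to 0.66 for the lead probe sets of the other members. In the order of the 12 Cldn4 means, WT at 6 hr was lowest (-0.95) and WT at 48 hr highest (1.14), and 1 gap between neighbours was over 2 SE of a difference. Neighbours in a sorted order lie close by construction, so smaller gaps do not show that groups were alike. Among the members, Cldn4 correlated with Cldn2 at r = 0.73, with Cldn7 at 0.68, with the Cldn3 lead probe set at 0.43 and with the Ocln lead probe set at -0.58.

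Genes known from regenerating alveolar epithelium were higher at 24 hr and 48 hr, while Cldn4 passed over genotypes at 48 hr only. Of 14 measured, 10 were higher at 24 hr and 11 at 48 hr over genotypes and 0 lower, against 3.88% and 8.39% of all genes higher, with a median of 0.47 and 0.69. The small proline-rich protein gene Sprr1a (3.12), Krt19 (0.85) and the galectin gene Lgals3 (0.65) had the smallest adjusted p at 48 hr. Of 10 epithelial markers 5 were higher at 48 hr and 0 lower, with Krt8, Krt18 and Krt19 on both lists, and Epcam, an adhesion molecule of epithelia, was higher by 0.24. The mean over these 10 markers at 48 hr was 0.25 to 0.35 in Notch3-/- mice, 0.02 to 0.29 in Notch4-/- mice and 0.03 to 0.29 in WT mice, against -0.29 to -0.12, -0.35 to 0.11 and -0.20 to 0.05 in their air mice. Both lists were chosen with earlier results of these data known, so their counts are a description. The part of these genes in the rises of Cldn4 and Cldn2 was not tested.

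Of 14 other claudins measured, 0 were higher over genotypes at 6 hr, 24 hr or 48 hr, against 0.715%, 3.88% and 8.39% of all genes higher, and 1 was lower at 6 hr, 2 at 24 hr and 1 at 48 hr, against 2.22%, 2.56% and 4.34% of all genes lower. At 6 hr this was Cldn19 (-0.25, adjusted p = 0.048), at 24 hr Cldn8 (-0.77, SE 0.13, adjusted p = 0.00061) and Cldn11 (-0.20, adjusted p = 0.038), and at 48 hr Cldn11 (-0.18, adjusted p = 0.038), all by limma. In single genotypes Cldn15, a channel-forming claudin of the intestine, rose in Notch4-/- mice at 24 hr by 0.88 (SE 0.23, adjusted p = 0.046), and Cldn11 fell in Notch3-/- mice at 24 hr by 0.37 (adjusted p = 0.037). Of 24 other tight junction genes, 0, 1 and 1 were higher at 6 hr, 24 hr and 48 hr and 1, 0 and 0 lower, and of 18 adherens junction and desmosome genes 0, 0 and 1 were higher and 0, 1 and 1 lower, to be read against the same shares of all genes. The paracingulin gene Cgnl1 was higher at 24 hr (0.30, adjusted p = 0.046), the polarity gene Crb3 at 48 hr (0.19, adjusted p just under 0.05), and the Y-box factor gene Ybx3 was lower at 6 hr (-0.23, adjusted p = 0.019). Marveld2, which encodes tricellulin, a relative of occludin at corners where cells meet, was lower in both lines over all exposures, with a difference of -0.35 in Notch3-/- mice (SE 0.05, limma adjusted p = 2.7e-05) and of -0.36 in Notch4-/- mice (SE 0.05, limma adjusted p = 2.4e-05). Esam was also lower in both lines (-0.21 and -0.18) and Pard6b in Notch4-/- mice (-0.40), while Cldn22 was higher in Notch3-/- mice (0.70). Strain and lost receptor cannot be told apart for these genes either. Among the adherens junction and desmosome genes, the plakophilin gene Pkp3 was higher (0.25, adjusted p = 0.0077) and Nectin3 lower (-0.25, adjusted p = 0.0093) at 48 hr over genotypes, and Perp was lower at 24 hr (-0.40, adjusted p = 0.045).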

How the data were processed

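The deposited table holds log2 values that the authors made from the arrays by robust multiarray average (RMA) in GeneSpring. Each probe set was found centred on its median over the 36 arrays (largest median 5e-07), which the methods do not describe. All columns belong to 1 mouse each, and 0 were left unassigned. The 64 control probe sets were left out.

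limma 3.58.1 in R 4.3.3 (lmFit, eBayes) fitted 12 group means in 1 model to 45037 probe sets, with Benjamini-Hochberg adjustment within each of 22 comparisons and a threshold of 0.05. All members are named. A gene with several probe sets is led by its most specific probe set (by suffix, with lowest number as tie break), and of other lists up to 3 genes with the smallest adjusted p are named. The members and lists were chosen with earlier results of these data known. Gene symbols were updated by RefSeq, and promoter windows of all 9 members were read from RefSeq. Within a genotype an ozone difference had an SE of 0.139 log2 in the median, a precision limited by how many arrays there were. The fit was also run on simulated arrays with independent noise and added changes in a single group. Those arrays lack any structure shared between mice, so that run does not vouch for the calls here. The same replicate number marks separate mice.

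Alternatives were arrays quantile normalized again or centred, array weights, Tukey's test, fits to the genotypes compared, other sets of probe sets, adjustment over families, a robust prior, a replicate block, and leaving out each mouse or Notch4-/- air mice 1 and 2.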

Additional observations from a re-analysis of the deposited data

How the results depend on the processing

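None of the results changed direction under any alternative run. The calls over genotypes for Cldn2, Cldn4, Cldn5 and the Ocln lead probe set held without any single mouse. The 10 calls of ozone against air within genotypes were 19 with array weights, 4 with only the arrays of the genotype compared, 0 with Tukey's test adjusted by Benjamini-Hochberg over probe sets, and 6 with an ANOVA adjusted over probe sets followed by Tukey's test, a setting chosen after seeing the data. Leaving out 1 mouse gave 4 to 11. The 6 calls over genotypes were 10 with array weights and 5 to 9 without 1 mouse. The 7 calls of a knockout line against WT were 11 with array weights, 4 with Tukey's test adjusted over probe sets, and 5 to 8 without 1 mouse. The 0 calls of a response difference were 5 with array weights, 4 of Cldn3 and 1 of Cldn7, and 0 without any single mouse. The cause of these shifts was not tested.

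Mice were not paired by replicate number in the main fit. The mean correlation of deviations from the group means was 0.067 within a number and -0.033 between different numbers. Deviations cancel within each group, so the second value largely follows from the first and is no separate reference. Of 198 same-number pairs 89 were over 0.1, and pairs of different numbers were not counted. Since 22 of 36 mice correlated best with their own number, mice of a number were somewhat more alike. What they shared was not tested. With the number as a block the calls were 12 within genotypes, 8 over genotypes, 6 for a knockout line against WT and 0 for response differences, and of the named calls 1 was lost, that of Ocln 1448873_at in Notch3-/- air mice (adjusted p = 0.054). Tukey's test was not run for response differences, a fit to single genotypes has no value over genotypes, and means over probe sets give no counts of probe sets. Depth has no counterpart here, and signal over background cannot be read from centred values.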
